A study of Arabidopsis thaliana with 6 samples.

Results

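WRKY transcription factors are a large plant family named for the WRKY amino acid motif of their DNA-binding domain. They bind W-box elements in promoters and are known for switching genes in response to pathogens, wounding, nutrient shortage and leaf senescence. The family is sorted into group I, with a pair of WRKY domains, and groups II and III, with a single domain and different zinc fingers. Many WRKY transcripts are themselves induced quickly by stress, and some of the proteins act below MAP kinase cascades started by immune receptors.

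The members described here are the genes with a symbol of WRKY or ATWRKY and a number that the platform annotation pairs with a probe set of their own. There were 6 of them among 13356 genes named in this way, each with 1 probe set among the 22746 analysed, and no filter on signal was applied. WRKY20 (AT4G26640) is of group I. WRKY6 (AT1G62300), WRKY42 (AT4G04450) and WRKY47 (AT4G01720) are of group IIb, WRKY22 (AT4G01250) of group IIe and WRKY53 (AT4G23810) of group III. RefSeq lists 67 Arabidopsis genes with a WRKY symbol. Of them, 61 had no probe set of their own named here, among them every gene of groups IIa, IIc and IId. Of all probe sets, 8730 were unnamed here, and 503 were annotated to several genes and not searched. Other WRKY genes may be measured by some of these. Below, a named probe set is one annotated to 1 gene. The 6 are therefore a small share of the family.

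RNA came from whole Arabidopsis thaliana plants at growth stage 1.04, an early rosette stage, and was hybridised to ATH1 arrays. There were 3 arrays of an atm mutant and 3 arrays of the wild type, Col0. ATM is the kinase that starts signalling from DNA double-strand breaks, and the series looks for transcripts that X-rays induce through it. The mutant is labelled atm in the titles, ATM1 as the source and AtATM3 mutant as the genotype, so that its allele is unsure. The annotation names 0 probe sets for ATM alone, and the genotype was not checked at that transcript. Both genotypes were grown on agar medium with sucrose, in 9 hours of light and 15 hours of dark at 22 °C. No irradiation, dose or time after treatment is given in the labels for either genotype. They do not say whether the replicates were grown separately, so the spread behind each p-value may be technical.

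The deposited values are MAS5 signals, which put the brightness of a probe set on a linear scale. The median over the probe sets was 40.01 to 41.33 on the 6 arrays. Atm mutant replicate 2 and wild type replicate 1 stood apart from the other arrays of their genotypes. Their deviations from the genotype means correlated at a Pearson r of 0.216 across all probe sets, which are not independent replicates. The other pairs of a mutant and a wild type array gave -0.138 to 0.0871. Deviations cancel within a genotype, so a high r of a pair lowers those of pairs that share an array with it. The control probe set for 25S ribosomal RNA gave 2123 on atm mutant replicate 2 and 836 on wild type replicate 1, with 4106 to 5400 on the rest. Of the markers of plant parts, RCA, Rubisco activase of leaves, and PYK10, a root beta-glucosidase, lay at percentiles of 99.6 to 99.9 on all 6 arrays. The root hair expansins EXPA7 and EXPA18 lay at percentiles of 36.6 to 52.6 and 50.1 to 60.3, and no flower or seed marker had a named probe set.

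The 6 WRKY probe sets differed widely in brightness. The percentile of a probe set within its array says how bright it was, and signals of different probe sets are not levels of different transcripts on a common scale. WRKY20 was at percentiles 73.6 to 76.8 on the atm mutant arrays and 77.1 to 79.5 on the wild type arrays. WRKY22 and WRKY47 lay above the 60th percentile on all 6 arrays. WRKY6 lay near the middle, at percentiles 39.1 to 55.7 on the atm mutant arrays and 47.6 to 53.4 on the wild type arrays. WRKY53 lay below the 40th percentile on all 6 arrays. WRKY42 lay below the 20th percentile on all 6. The sources used here give no detection calls, so whether the probe set of WRKY42 measured any transcript is unknown. In wild type the order by mean percentile was WRKY20, WRKY22, WRKY47, WRKY6, WRKY53 and WRKY42. WRKY22 and WRKY47 overlapped in percentile and changed places when wild type replicate 1 was left out.

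No WRKY probe set passed the test of atm mutant against wild type. Limma called 0 of the 6 at an adjusted p under 0.05, and 0 of 6 had an unadjusted p under 0.05. Over all probe sets 30, or 0.132%, were called, all of them lower in the atm mutant, and 3.75% had an unadjusted p under 0.05. At so low a share, a count of 0 among 6 sets the family apart in no way. The adjusted p was 1.00 for each of the 6 after rounding, with Benjamini-Hochberg adjustment over all 22746. The log2 changes of atm mutant minus wild type were above 0 for 3 members and below 0 for 3, with a median of -0.07, against 0.02 over all probe sets. This median turned to 0.07 without atm mutant replicate 2 and wild type replicate 1. In bulk tissue, a change in the share of cells that express a gene and a change of its RNA per cell cannot be told apart.

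**Figure D1:**
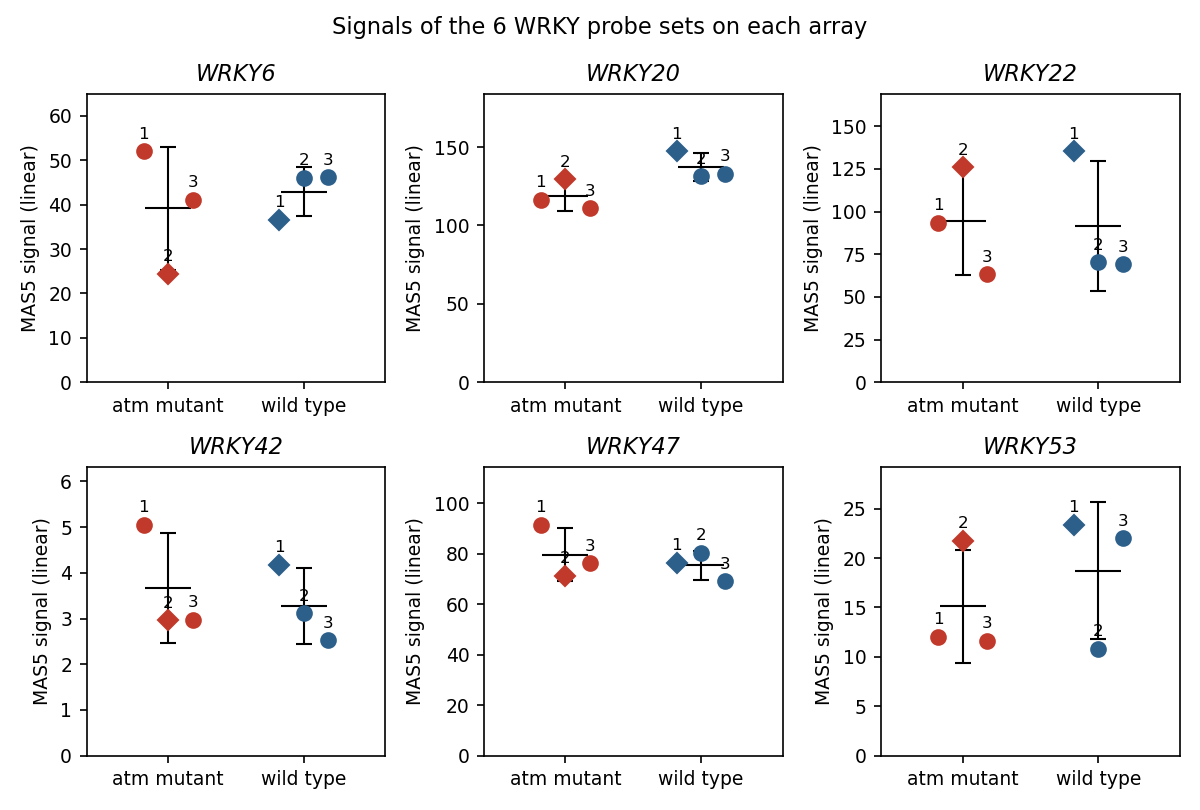
MAS5 signal on a linear axis for each WRKY probe set, with atm mutant arrays on the left and wild type arrays on the right of each panel. Points are arrays numbered by replicate, diamonds are atm mutant replicate 2 and wild type replicate 1, and bars give the mean ± SD of 3 arrays. The genotypes overlap in every panel but that of WRKY20, and WRKY22 has its highest signals, 126 and 135, on the arrays drawn as diamonds.

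WRKY20 was the only one of the 6 members whose genotypes did not overlap. Its signals were 116, 129 and 111 on atm mutant replicates 1, 2 and 3, against 147, 131 and 133 on wild type replicates 1, 2 and 3. The highest mutant array lay just under the lowest wild type array. The means were 119 ± 9.47 in the atm mutant and 137 ± 8.84 in the wild type (SD, n = 3 each). On the log2 scale the difference was -0.21 with an SE of 0.12 (limma adjusted p = 1.00). The 95% interval of the ratio of atm mutant to wild type ran from 0.709 to 1.06, and it included no change. Mutant arrays lay below all wild type arrays in 4.52% of all probe sets. This share covers that direction only, while the count of 1 among 6 members took either direction. The share of all probe sets without overlap in either direction was not counted. It can only be as large or larger, so the separation of WRKY20 is not read as a result about the family. Over 18 alternative settings the log2 change lay between -0.27 and -0.16, with a lowest limma adjusted p of 0.603. Filters, eBayes options and added model terms left this estimate as it was. Leaving out arrays could not turn its sign, because the genotypes did not overlap. The range is therefore a weak check. ZAP1 (AT2G04880), another group I gene with WRKY1 among its synonyms, is outside the rule by its symbol. It had 87.6, 91.1 and 77.3 on atm mutant replicates 1, 2 and 3 and 106, 94.6 and 82.1 on wild type replicates 1, 2 and 3. Here the genotypes overlapped, and the log2 change was -0.14 (SE 0.15).

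The 3 members of group IIb showed no common direction. WRKY6, a senescence and defence factor that also represses the phosphate exporter gene PHO1, had signals of 52.03, 24.5 and 41.1 on atm mutant replicates 1, 2 and 3, against 36.6, 46.04 and 46.2 on wild type replicates 1, 2 and 3. Atm mutant replicate 1 lay above the wild type range and replicate 3 within it, while replicate 2 lay below it as the dimmest of the 6. The log2 change was -0.19 (SE 0.31), and without atm mutant replicate 2 and wild type replicate 1 it was 0.0043. WRKY42, which acts on phosphate transport genes too, had 5.05, 2.96 and 2.97 on atm mutant replicates 1, 2 and 3 and 4.18, 3.12 and 2.53 on wild type replicates 1, 2 and 3. At these dim signals no difference can be read, and the 95% interval of the ratio ran from 0.421 to 2.90. WRKY47 had 91.5, 71.3 and 76.3 on atm mutant replicates 1, 2 and 3, against 76.4, 80.5 and 69.2 on wild type replicates 1, 2 and 3. It varied little in either genotype, with the brightest array 1.28-fold above the dimmest in the atm mutant and 1.16-fold in the wild type. The log2 change of WRKY47 was 0.08 (SE 0.16), and the interval of the ratio, 0.817 to 1.36, was the second narrowest after that of WRKY20.

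WRKY22, a factor of the MAP kinase pathway that the bacterial protein flagellin starts, varied within the genotypes far more than between them. It had signals of 93.5, 126 and 63.2 on atm mutant replicates 1, 2 and 3, against 135, 70.4 and 69.01 on wild type replicates 1, 2 and 3. The brightest array exceeded the dimmest by 1.99-fold in the atm mutant and 1.96-fold in the wild type. The means were 94.2 ± 31.4 in the atm mutant and 91.6 ± 37.9 in the wild type (SD, n = 3 each), and the log2 difference was 0.06 with an SE of 0.33 (limma adjusted p = 1.00). The interval of the ratio ran from 0.618 to 1.76. WRKY53, an early regulator of leaf senescence, had 12.1, 21.7 and 11.6 on atm mutant replicates 1, 2 and 3 and 23.4, 10.8 and 22.0 on wild type replicates 1, 2 and 3. In each genotype the arrays lay either at 10.8 to 12.1 or at 21.7 to 23.4. Its log2 change was -0.29 (SE 0.46), with an interval of the ratio from 0.392 to 1.71. Without wild type replicate 2 the log2 change was -0.65, and without wild type replicate 1 it was -0.09.

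**Figure D2:**
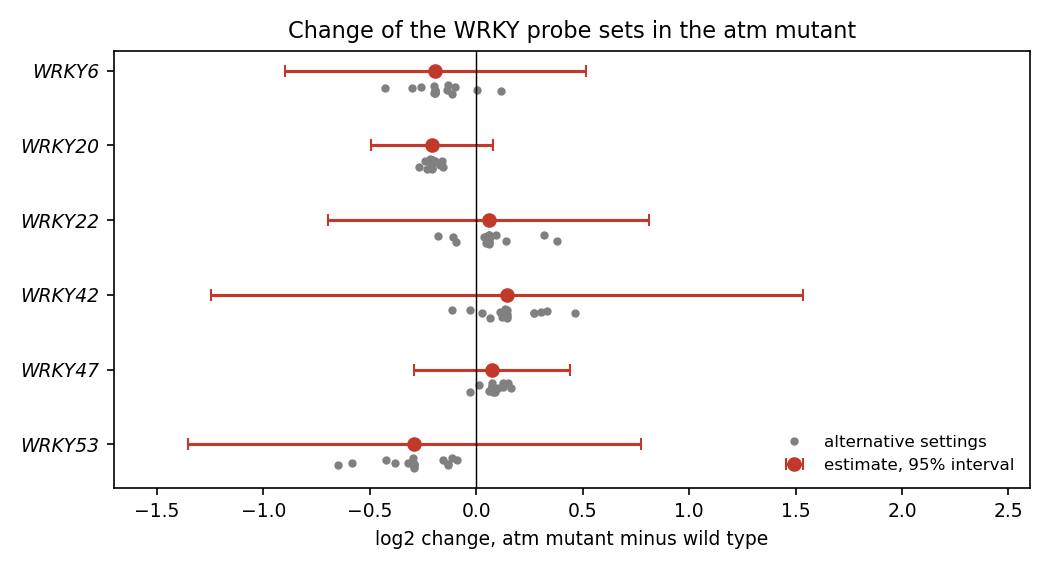
Log2 change of atm mutant minus wild type for each WRKY probe set. Red points are limma estimates from 3 arrays a genotype with 95% intervals, and grey points are the estimates under the alternative settings, spread vertically for legibility. Every interval spans 0, and that of WRKY20, from -0.50 to 0.08, is the narrowest.

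WRKY22 and WRKY53 were both higher on atm mutant replicate 2 and wild type replicate 1, the arrays that stood apart. These arrays were picked out from all probe sets, the WRKY ones included, so their values are described here with no test. Each was set against the mean log2 signal of the other arrays of its genotype. WRKY22 was 1.64-fold higher on atm mutant replicate 2 and 1.94-fold higher on wild type replicate 1. These were its highest signals on the 6 arrays, and 5.78% of all probe sets had an excess on both arrays at least as high as its smaller one. Atm mutant replicate 2 exceeded atm mutant replicate 1 alone by 1.35-fold for WRKY22, and atm mutant replicate 3 alone by 1.99-fold. WRKY53 was 1.84-fold higher on atm mutant replicate 2 and 1.52-fold higher on wild type replicate 1. Wild type replicate 3, with 22.0, was nearly as bright for WRKY53 as wild type replicate 1. Against wild type replicate 3 alone the log2 excess of wild type replicate 1 was 0.09, and against wild type replicate 2 alone it was 1.11.

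WRKY22 and WRKY53 were the 2 of 6 members at least 1.5-fold higher on both arrays, as were 7.51% of all probe sets. This count was 1 without atm mutant replicate 3, where WRKY22 fell short, and 1 without wild type replicate 2 or with median centring, where WRKY53 did. With a pseudocount of the 40th percentile it was 0. At 2-fold the count was 0 of 6 members and 3.28% of all probe sets. In the other direction 0 of 6 members were at least 1.5-fold lower on both arrays, where 6.05% of all probe sets were, and 0 of 6 were at least 2-fold lower, where 2.61% were. WRKY6 came closest, 1.89-fold lower on atm mutant replicate 2 and 1.26-fold lower on wild type replicate 1. WRKY20 was 1.14-fold higher on atm mutant replicate 2 and 1.12-fold higher on wild type replicate 1. The log2 difference was -0.23 on atm mutant replicate 2 and 0.03 on wild type replicate 1 for WRKY47, and -0.39 on atm mutant replicate 2 and 0.57 on wild type replicate 1 for WRKY42. On atm mutant replicate 2 the members split in direction, with WRKY20, WRKY22 and WRKY53 higher and WRKY6, WRKY42 and WRKY47 lower. On wild type replicate 1 only WRKY6 was lower. The median log2 difference of the members was -0.02 on atm mutant replicate 2 and 0.365 on wild type replicate 1. Over all probe sets it was 0.00 on each. Both arrays also had the lowest 25S ribosomal RNA control signals. The 3′ to 5′ signal ratio of GAPDH, a sign of RNA integrity, was 1.49 on atm mutant replicate 2 and 1.41 on wild type replicate 1, within the 1.08 to 1.56 of the other 4 arrays. For actin it was 9.33 on atm mutant replicate 2 and 11.1 on wild type replicate 1, with 8.35 to 9.94 on the others, and for ubiquitin 2.33 and 2.72 on these arrays, with 2.72 to 3.25 on the others. The part of RNA quality in these values was not tested.

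**Figure D3:**
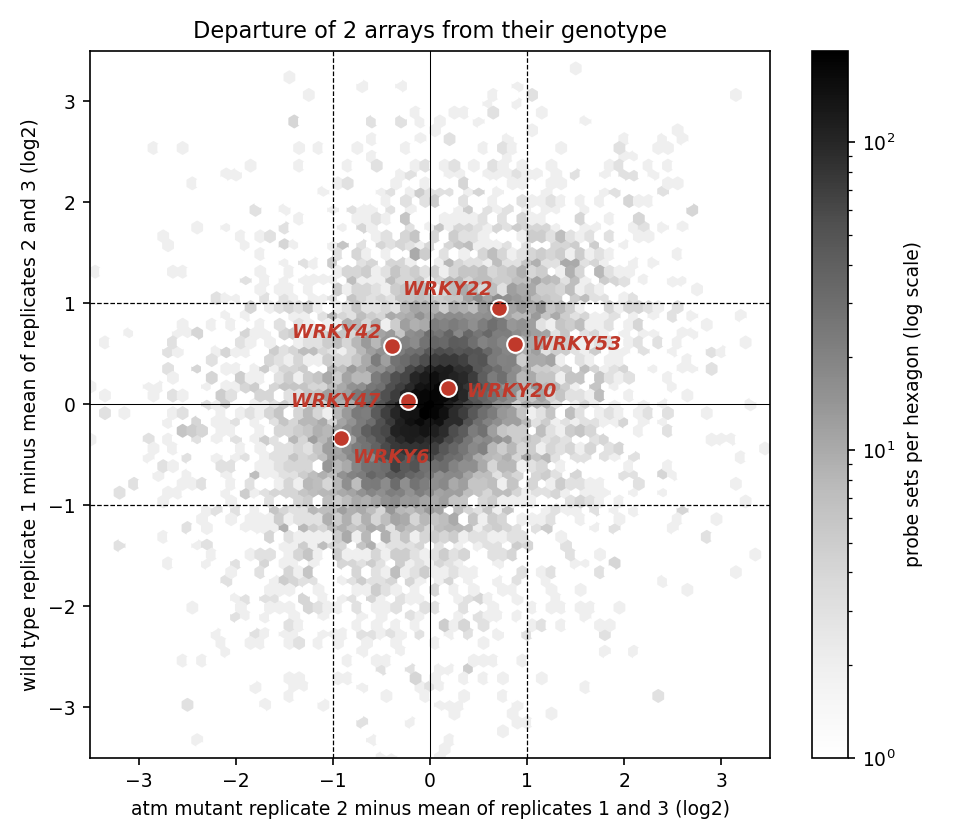
Log2 difference of atm mutant replicate 2 (horizontal) and wild type replicate 1 (vertical) from the mean of the other arrays of their genotype, for all probe sets in grey by density and the WRKY probe sets in red. Dashed lines mark 2-fold, and 308 probe sets lie outside the axes, which end at 3.5. WRKY22 and WRKY53 lie toward the upper right, short of 2-fold on both axes, and WRKY6 lies toward the lower left.

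Few of the genes that work with WRKY factors had a named probe set. Of 19 genes for MAP kinases, immune receptors and their early signalling, 3 were named on the array and limma called 0 of them, with 0 at an unadjusted p under 0.05, where 0.132% and 3.75% of all probe sets were. BIK1, a kinase that acts just below immune receptors, had 197, 174 and 190 on atm mutant replicates 1, 2 and 3 and 160, 197 and 192 on wild type replicates 1, 2 and 3. SAG101, a partner of the immune regulator EDS1, had a log2 difference of -0.36 with an SE of 0.23, and EFR, the receptor of bacterial elongation factor Tu, lay below the 20th percentile on all 6 arrays. Of 7 partner proteins of WRKY factors 1 was named, IKU1, a VQ protein of seed growth, with a log2 change of 0.02 (SE 0.19). None of these 4 was 2-fold higher on both atm mutant replicate 2 and wild type replicate 1, where 3.28% of all probe sets were.

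The 3 stress output genes with a named probe set were higher on atm mutant replicate 2 and wild type replicate 1, arrays chosen because they deviate. Their lists were chosen with earlier results of these data known, and 3 genes do not stand for stress genes as a class. Of 28 rapidly induced stress transcripts 2 were named, and both were at least 2-fold higher on both arrays, as were 3.28% of all probe sets. STZ, a zinc finger repressor induced by many stresses, was 4.35-fold higher on atm mutant replicate 2 and 6.64-fold higher on wild type replicate 1. CML38, a calmodulin-like calcium sensor, had signals of 19.2 on atm mutant replicate 2 and 24.5 on wild type replicate 1, against 2.38 to 10.4 on the other 4 arrays. Of 20 target and defence output genes the 1 named, PDF1.2, a defensin induced by jasmonate and ethylene, had 25.2 on atm mutant replicate 2 and 8.20 on wild type replicate 1, against 1.08 to 5.71 on the other 4 arrays. PDF1.2 was below the 40th percentile on all 6 arrays, and so was CML38. With signals raised to the 20th percentile of their array, PDF1.2 was 3.31-fold higher on atm mutant replicate 2 and 1.12-fold on wild type replicate 1, and CML38 was 2.52-fold higher on atm mutant replicate 2 and 2.70-fold on wild type replicate 1. Between genotypes limma called 0 of these 3, with 0 at an unadjusted p under 0.05, where 0.132% and 3.75% of all probe sets were.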

How the data were processed

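For each array the authors deposited a linear signal intensity of every probe set. MAS5 and GCOS are named in the submitters' processing notes. The scaling target and detection calls are not given in the sources used here. Leaving out 64 Affymetrix controls, the other 22746 probe sets were analysed as log2 signals without rescaling, filter or pseudocount. The atm mutant minus wild type difference was estimated over all of them with limma 3.58.1 in R 4.3.3 (lmFit, eBayes with an intensity trend, no block), with two-sided p-values adjusted by Benjamini-Hochberg and a threshold of 0.05. The code of the fit was checked on simulated data with independent noise and added changes larger than those of the members. This does not test how the fit handles the departure shared by atm mutant replicate 2 and wild type replicate 1. With 3 arrays a genotype an exact permutation p is at least 0.1. Precision is limited by the number of arrays.

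The platform annotation named the genes, and the RefSeq table of TAIR10.1 updated their symbols by gene ID. It gave 1 gene to 13513 probe sets, of which 13436 matched RefSeq, several genes to 503 and none to 8730. No sequence or coordinate was used. Family groups and gene lists were written from general knowledge. The members and lists were chosen with earlier results of these data known. Every member was to be named, and from each list the called genes or those with the smallest p or the largest departure on atm mutant replicate 2 and wild type replicate 1. Alternatives varied normalization, filters, low values, eBayes, array weights, the replicate number as a block and the arrays used.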

Additional observations from a re-analysis of the deposited data

How the results depend on the processing

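All 18 alternatives gave 0 calls among the WRKY members tested, which were 4 with a filter at the 40th percentile of the array and 3 with one at the 60th. The count over all probe sets, 30 in the fit described, was 16 without the eBayes trend, 50 with array weights (48 lower, 2 higher in the atm mutant), 111 without atm mutant replicate 2 and wild type replicate 1 (87 lower, 24 higher), 90 with a term for these arrays (77 lower, 13 higher), and 12 to 36 with 1 array left out, lowest without wild type replicate 2 (12) and wild type replicate 3 (13), and 19 without atm mutant replicate 3. Other settings gave 28 to 35. The cause was not tested. A block for the replicate number gave 11 calls, all among the 30, and 0 WRKY members. Same-numbered arrays deviated together at r of -0.097, -0.11 and 0.0871, so the numbers were not taken as pairs. Leaving out 1 array gave log2 changes of -0.43 to 0.12 for WRKY6, -0.18 to 0.38 for WRKY22, -0.11 to 0.33 for WRKY42 and -0.0284 to 0.15 for WRKY47, so their signs rest on single arrays. Without atm mutant replicate 2 and wild type replicate 1, WRKY6 had 0.0043. WRKY20 and WRKY53 stayed below 0 in every alternative that tested them, with -0.65 to -0.09 for WRKY53 when 1 array was left out. For WRKY20, leaving out arrays could not turn the sign, as its genotypes did not overlap. The median change of the members, -0.07, moved by less than 0.261, the pooled SD of the array medians over the members. That SD is not an error of the median change and is larger than it in size, so stability cannot be read from this. The sign of the median change turned without atm mutant replicate 2 and wild type replicate 1 (0.07) and with the filter at the 60th percentile (0.06).

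For the departure of atm mutant replicate 2 and wild type replicate 1, 745 probe sets were at least 2-fold higher on both. This was 377 with a floor at the 20th percentile, 170 with a pseudocount of the 40th percentile, 266 and 148 with the filters at the 40th and 60th percentile, 1709 at 1.5-fold and 264 at 3-fold. The WRKY count moved only at 1.5-fold, to 2. Alternatives to that count, added after seeing the data, gave 0 to 2. Only 7 of 72 WRKY genes by symbol or synonym had a named probe set, and dim signals such as those of WRKY42 and WRKY53 limit what can be read.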
